A study of Mus musculus with 9 samples.

Results

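Levels of 10 genes were followed across growing mouse oocytes with different sex chromosomes: Ppia, which encodes cyclophilin A, the heat shock chaperone genes Hspa8, Hspa4, Hsp90aa1, Hsp90ab1, Hspa2, Dnaja1, Dnajb1 and Hspd1, and Hsf1, the heat shock transcription factor gene. They were taken by gene name, 10 of the 28052 genes in the table of unique molecular identifier (UMI) counts, and 8 of them passed the filter on low counts together with the rest of the 10993 genes tested. The 9 sequenced samples split evenly between XX, XO and XY females, 3 each, at 18 days postpartum (dpp), all labelled C57BL/6. Each sample pooled 30 oocytes, 10 of 50 to 55 µm and 20 of 55 to 60 µm in diameter, and the pools of a genotype were described as biological triplicates. B6.Y TIR males mated to B6 females gave the XY females, which are sex-reversed and carry the TIR Y chromosome, and the XX females of the same litters. XO females came from another cross, Paf carrier males backcrossed from C3H/HeSnJ to B6 and mated with B6 females, so the X monosomy and the cross of origin cannot be told apart. How many animals gave each pool is not given in the sources used here.

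HSP70 proteins hold unfolded polypeptides, J-domain proteins bring them their clients and trigger ATP hydrolysis, and HSP110 proteins release the ADP. Some clients pass from HSP70 to HSP90, which completes the folding of kinases, hormone receptors and other signalling proteins. Cyclophilins turn proline bonds between cis and trans. HSF1 drives many of these genes through heat shock elements, and it is known in the oocyte as a maternal factor that keeps HSP90 alpha high. Ppia has a second role here, since it was the gene to which the study scaled its quantitative RT-PCR, so its level across genotypes also bears on its use as a reference. Hspd1 encodes HSP60, which works in the mitochondrion and not in the cytosol.

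Heat shock elements are runs of the pentamer that HSF1 trimers bind, and their letters are shown where a promoter window of a gene described here held them. RefSeq promoter windows (GRCm38.p6), each 300 bases from 250 before to 50 after a start site, were at hand for 6 of the 10 genes. Both strands were searched for GAANNTTCNNGAA, TTCNNGAANNTTC, and the shorter GAANNTTC and TTCNNGAA that lie within them.
Hspd1 and Hspe1: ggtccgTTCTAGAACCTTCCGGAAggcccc
Dnaja1: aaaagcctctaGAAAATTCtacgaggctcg
Capitals mark the motif. The first sequence, chr1:55088053-55088082 on the plus strand, lies between divergent start sites of Hspd1 (55087932, minus strand) and Hspe1 (55088148, plus strand), which encodes the HSP10 lid of the HSP60 chamber. It held both of the longer motifs, and 1 or the other was present in 198 of 32851 windows (0.603%). The second, chr4:40722333-40722362 on the plus strand, held GAANNTTC, found in 7.86% of windows. Both stretches lie in exons of longer transcripts in Gencode M21. Windows at other start sites of Hspd1 and Dnaja1 held no match. No match stood in the windows of Ppia, Dnajb1, Hspa4 and Hspa2, and a match or its lack says nothing of binding.

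The libraries held 2130145 to 3157338 gene UMIs, with spike-in RNA of the External RNA Controls Consortium (ERCC) at 0.204 to 0.862% of UMIs. XO1 and XY1 stood apart. Their summed UMIs of 11 oocyte markers were 19876 and 32238, against 64215 to 90237 in the other 7 pools, and mitochondrial mt-Rnr2 took 6.13 and 5.15% of their gene UMIs. It was also the most abundant gene of XO2, XO3, XY2 and XY3, at 1.52, 1.23, 2.60 and 1.63%. The 7 listed granulosa cell markers with a row summed to 48.0 to 92.1 normalized CPM in a pool, with Nr5a2, Cyp19a1 and Kitl at 699, 463 and 292 UMIs over all pools and Inhba, Fshr, Amhr2 and Inha at 32, 31, 3 and 1. Their part in the results was not tested. Levels below are normalized CPM: UMIs over the gene UMIs of a pool times a factor taken from the ERCC counts. The factor did not follow the amount of spike-in. XX3 had the lowest ERCC share (0.204%) and the highest factor (1.247), while XY1 had the highest share (0.862%) and a factor of 1.010. These levels are thus not scaled to the amount of spike-in, and need not follow the RNA content of a pool. The median log2 fold change of all tested genes for XX relative to XO was -0.46 with these factors and 0.42 with ERCC totals. UMIs are counted at the 5′ end, once per molecule, so a level does not grow with transcript length. In pooled cells, a lower level can mean fewer molecules in each oocyte or fewer oocytes with the RNA, which cannot be told apart.

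Transcripts of 2 of the 8 tested genes, Ppia and Dnajb1, were lower in XX than in XO oocytes, at 2.59-fold and 2.03-fold by their means. Ppia was also 2.20-fold lower in XY than in XO oocytes. None of the 8 was called between XX and XY oocytes, where the lowest unadjusted p was 0.269. A gene was called at an unadjusted p below 0.05 in edgeR's quasi-likelihood test, the threshold of the study. By that rule 16.7% of all tested genes were called lower in XX than in XO (1.4% higher), 4.39% lower in XX than in XY (1.41% higher), and 8.24% in the contrast of XY with XO as lower in XY (1.69% as higher). The median log2 fold change of the 8 genes was -0.88, -0.21 and -0.64 in these 3 contrasts, and the medians over all genes tested were -0.46, -0.19 and -0.30. After Benjamini-Hochberg adjustment over all 10993 genes none of the 8 was called, with a lowest adjusted p of 0.203, in contrasts where edgeR called 0, 9 and 4 genes in all (0, 0.0819 and 0.0364% of those tested). DESeq2 and limma voom, run on the same scaling, also gave none of the 8 an adjusted p below 0.05, although DESeq2 called 467, 87 and 64 genes in all and limma voom 1, 12 and 7. Each p given below as unadjusted is that of this edgeR fit unless another tool is named. The plot of levels by pool shows how far the pools of a genotype lay apart for most of these genes.

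**Figure D1:**
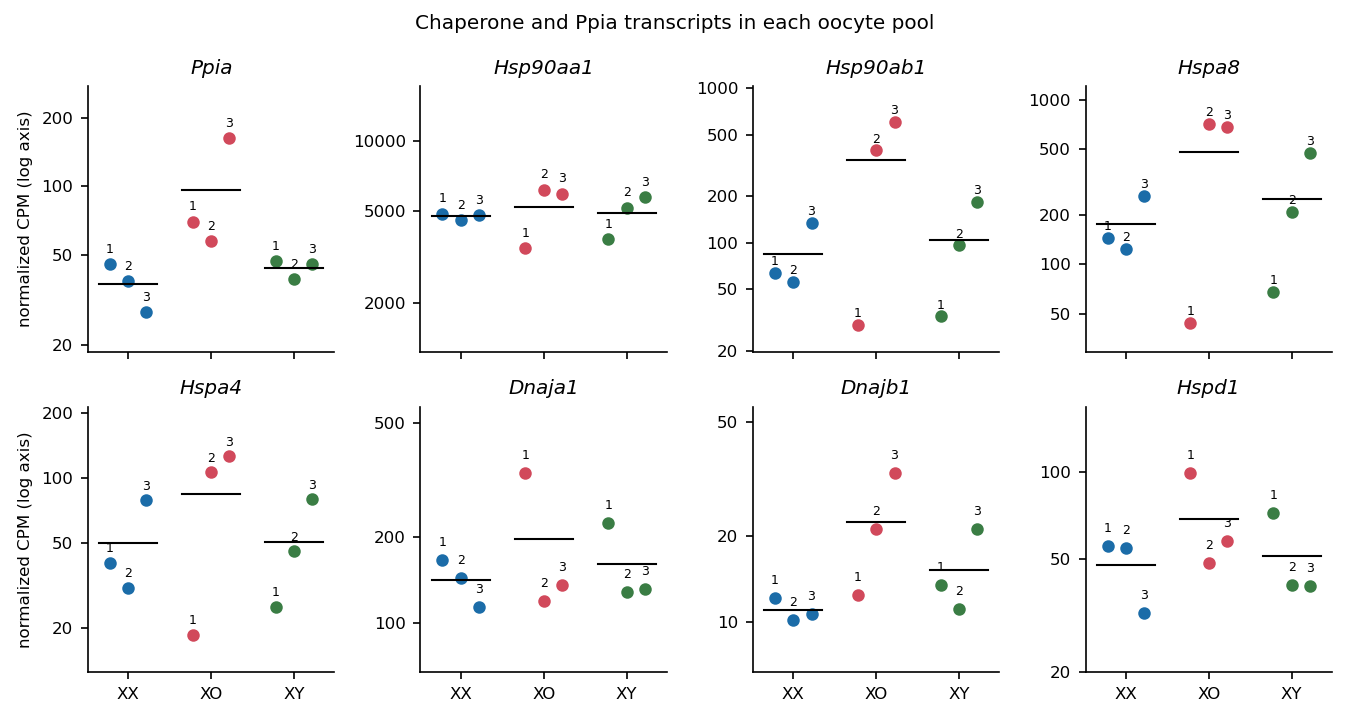
Normalized CPM of the 8 tested genes (log axes, a separate scale for each gene) in the 3 pools of XX, XO and XY oocytes. Points are pools with their replicate number, and bars are means. For Ppia the 3 XO points lie above all others, while for Hspa8, Hspa4 and Hsp90ab1 the XO points span 16.2-fold, 6.78-fold and 20.7-fold.

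Ppia (chromosome 11, 6415443 to 6419817, GRCm38) stood at 45.6, 38.2 and 28.0 normalized CPM in XX1 to XX3, at 69.9, 57.4 and 163 in XO1 to XO3, and at 46.9, 39.1 and 45.6 in XY1 to XY3. All 3 XO pools were above all XX and XY pools, and XO3 was far above the other two XO pools. The XY pools lay close together and overlapped the XX pools. Such a separation, XX wholly below XO, was found for 13.6% of tested genes, and XY wholly below XO for 6.34%. The counts behind these levels were 92 UMIs in XX3 (exact Poisson 95% interval 74.2 to 113, counting error only) and 288 in XO3 (256 to 323), the lowest and highest of the pools. The UMIs of the other XO pools, 135 (113 to 160) and 111 (91.3 to 134), had intervals that overlapped those of XX1 (107 to 152) and XX2 (89.5 to 131). The mouse genome holds processed pseudogenes of Ppia and Hspa8, and how reads that match several copies were counted is not given in the sources used here, so both genes' counts carry that uncertainty.

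The mean of Ppia was 37.3 ± 8.82 for XX, 96.6 ± 57.5 for XO and 43.9 ± 4.21 for XY oocytes (normalized CPM, SD, n = 3 each). In edgeR the log2 fold change was -1.37 (SE 0.41) for XX relative to XO, with an unadjusted p of 0.00785 and an adjusted p of 0.203. It was -1.14 (SE 0.41) for XY relative to XO, with an unadjusted p of 0.0199 and an adjusted p of 0.485. The value for XX relative to XY was -0.24 (SE 0.41, unadjusted p of 0.575). Relative to the median gene these values were -0.92, -0.84 and -0.04. XO3 carried much of the size: without it the log2 fold changes to XO became -0.77 for XX, still called, and -0.54 for XY, no longer called at an unadjusted p of 0.114. The difference between XY and XO was also not called without XY2 (-1.06, unadjusted p of 0.0645). Scaled to gene totals, to ERCC totals or with 2 sva covariates, the value for XX relative to XO was -0.76, -0.61 and -0.11 and was not called. That for XY relative to XO was then -0.66, -0.97 and -0.43, again not called.

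On other scales the order of the genotypes for Ppia was less clear. As CPM of gene UMIs, with no spike-in, Ppia stood at 51.3, 44.5 and 34.9 in XX, 58.5, 48.6 and 114 in XO, and 47.4, 45.2 and 47.8 in XY pools. XO2 then lay below XX1. Per 1000 ERCC UMIs, the values were 10.7, 7.18 and 17.1 in XX, 8.89, 13.6 and 30.8 in XO, and 5.45, 6.57 and 15.3 in XY pools. The 3 genotypes then overlapped. Whether the spike-in was recovered evenly across pools was not tested. The exact permutation test over all 1680 arrangements of the 9 pools gave p = 0.0107 among genotypes in normalized CPM (adjusted over the 3 scales, 0.0321), 0.075 as CPM of gene UMIs (adjusted 0.113) and 0.396 per ERCC UMI (adjusted 0.396), where the smallest possible p was 0.00357.

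**Figure D2:**
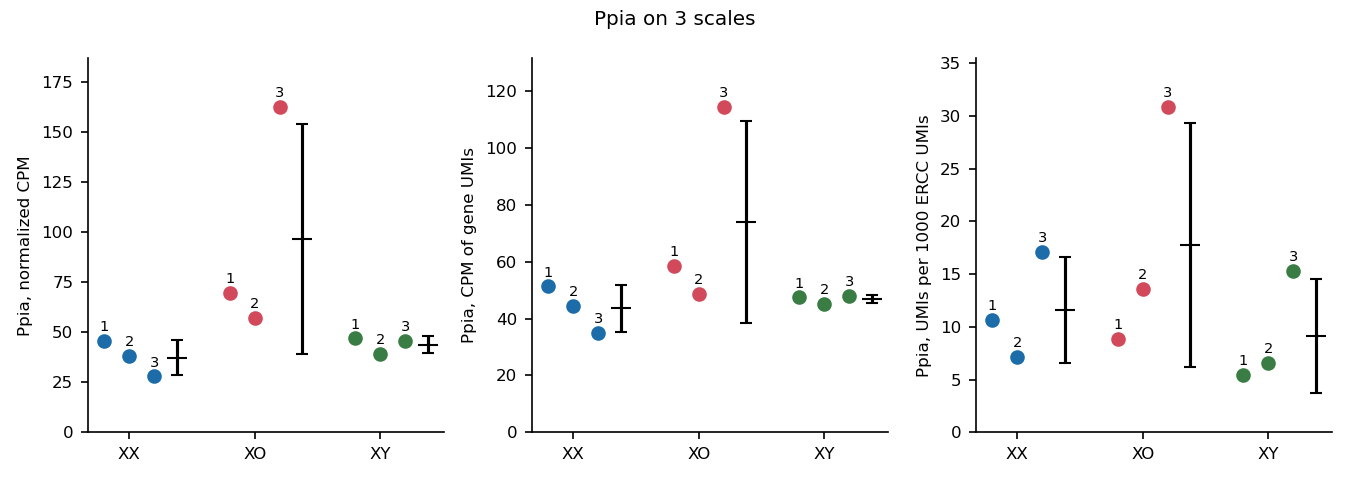
Ppia in each pool in normalized CPM, in CPM of gene UMIs and in UMIs per 1000 ERCC UMIs (linear axes from 0). Points are pools with their replicate number, and black marks are the mean ± SD of 3 pools. XO3 is the highest pool on every scale, at 163, 114 and 30.8. XO1 lies above all XX and XY pools in the first 2 panels, and XO2 in normalized CPM alone.

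Dividing by Ppia moved the median of all tested genes in each contrast. Ppia was higher in XO pools in normalized CPM, so the direction of the move relative to XO follows from the division. It is not separate support for a difference in Ppia. XO3 held 288 Ppia UMIs and the other pools 92 to 151, and the part of XO3 in the move was not tested. With Ppia UMIs in place of library sizes, the median log2 fold change of all tested genes moved from -0.46 to 0.70 for XX relative to XO and from -0.30 to 0.59 for XY relative to XO, while that for XX relative to XY moved from -0.19 to 0.09. Between XX and XO the same test then called 1797 genes higher (16.3%) and 90 lower (0.819%) in XX. The spike-in factors gave 154 and 1832, and TMM factors of the genes themselves gave 481 (4.38%) and 864 (7.86%). For XY relative to XO it called 1330 genes higher (12.1%) and 70 lower (0.637%), where the spike-in factors gave 186 and 906. None of the 8 genes was called in either contrast on this scale, where Ppia itself could not be called, since it is at 0 by construction. These RNA-seq pools are not the samples of the RT-PCR, where Ppia was measured in other pools of oocytes.

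**Figure D3:**
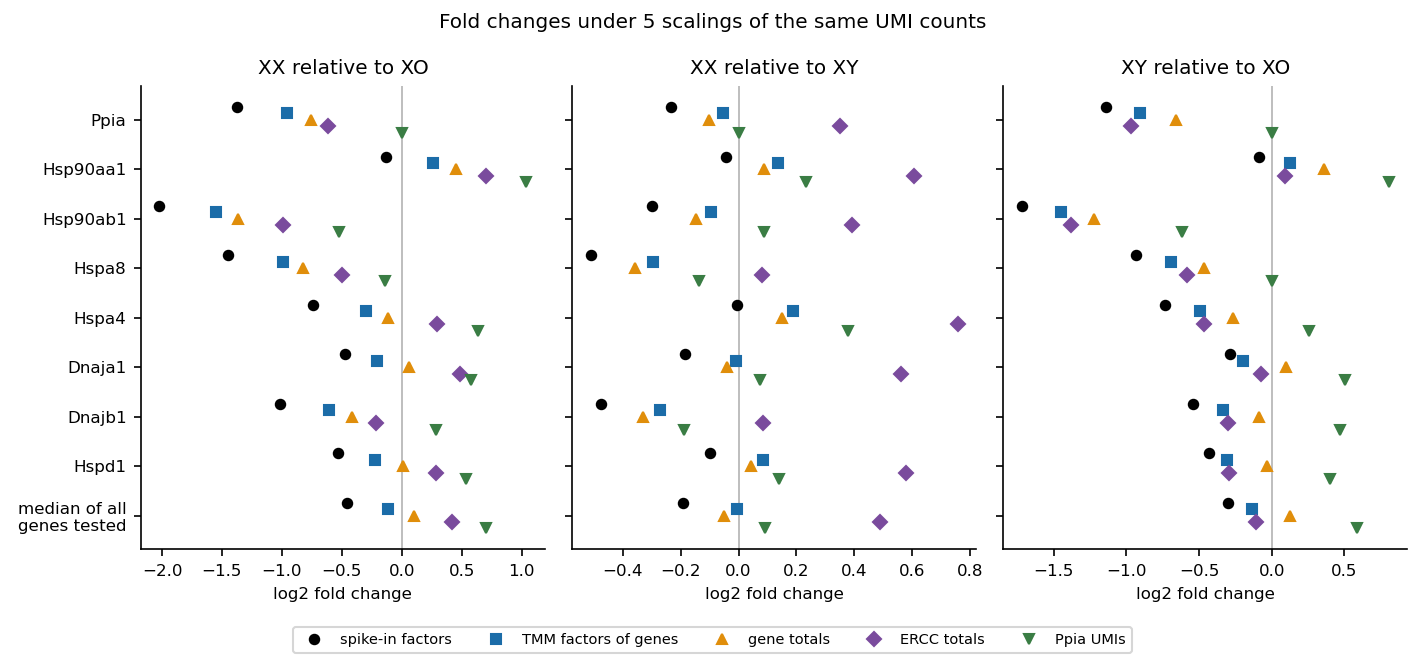
Log2 fold changes of the 8 tested genes and the median of all 10993 tested genes in the 3 contrasts, fitted to the same UMI counts with 5 scalings (symbols). The median for XX relative to XO runs from -0.46 with spike-in factors to 0.70 with Ppia UMIs, and Ppia is at 0 by construction on its own scale.

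In normalized CPM the spread of Ppia over the 9 pools was larger than that of most genes. Its coefficient of variation was 68.4%, at percentile 80.2 of all tested genes, whose median was 42.5%. Without XO3 it was 27.5%. As CPM of gene UMIs the coefficient of variation of Ppia was 42.4%, and per 1000 ERCC UMIs it was 61.2%. Medians of all genes on those 2 scales are not given here. Ppia ranked 2293 of 10993 by mean level. Of 17 other common reference genes that were tested, 11 varied less in normalized CPM. Ywhaz, a 14-3-3 adaptor protein gene, varied least, with 448 to 557 normalized CPM in the 9 pools and a coefficient of variation of 7.85%. On other scales it was less even, with 391 to 455 CPM of gene UMIs in XO pools against 558 to 564 in XX pools, and 60.3 to 273 UMIs per 1000 ERCC UMIs over all 9. Actb, for beta-actin, was also even at 17.7%, with 23.5 to 42.0 normalized CPM. Tubb5, a beta-tubulin gene, varied by 44.3% and was lower in XX than in XO oocytes (log2 fold change -0.96, unadjusted p of 0.0300, adjusted 0.243). Gapdh, the glycolytic enzyme gene, varied by 196%, from 1.39 normalized CPM in XY1 to 167 in XO3. Of the 17, 9 were called lower in XX than in XO, beside the 16.7% of all genes, and Tubb5 and Gapdh were among them. Gapdh has many processed pseudogenes, so its counts are uncertain.

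Hsp90aa1 (chromosome 12, 110690605 to 110702728), the inducible cytosolic HSP90 alpha gene, was the most abundant of the 10 and ranked 26 among all tested genes by mean level. It stood at 4880, 4579 and 4798 normalized CPM in XX1 to XX3, at 3467, 6177 and 5954 in XO1 to XO3, and at 3779, 5175 and 5729 in XY1 to XY3. The genotypes overlapped, and XO1 and XY1 were the lowest pools. Its spread was small, with a coefficient of variation of 18.8%, and its log2 fold changes were -0.13 (SE 0.42, unadjusted p of 0.766), -0.04 and -0.09 for XX relative to XO, XX relative to XY and XY relative to XO.

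Hsp90ab1 (chromosome 17, 45567775 to 45573271), the constitutive HSP90 beta gene, was far less abundant and varied most of the 8 tested genes, with a coefficient of variation of 111%. It stood at 64.1, 55.7 and 135 in XX1 to XX3, at 29.5, 397 and 610 in XO1 to XO3, and at 33.5, 96.0 and 184 in XY1 to XY3. XO2 and XO3 were the highest pools and XO1 the lowest, so the genotypes overlapped. Its mean was 4.06-fold lower in XX than in XO oocytes (log2 fold change -2.02, SE 0.94, unadjusted p of 0.0579, 0.0258 in DESeq2) and 3.29-fold lower in XY than in XO (-1.72, SE 0.93, unadjusted p of 0.0951), and neither passed the threshold in edgeR. With the replicate number as a block, the XY to XO difference passed it (-1.49, unadjusted p of 0.0447, adjusted 0.290), and 2 of the 8 genes were then called lower in XY, beside 14.1% of all genes. UMIs of Hsp90aa1 per UMI of Hsp90ab1, a ratio within a library that needs no scaling, were 76.1, 82.3 and 35.5 in XX, 117, 15.6 and 9.76 in XO, and 113, 53.9 and 31.1 in XY pools. The beta form was thus the minor one in every pool, and the ratio did not separate the genotypes (exact permutation p = 0.493).

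Hspa8 (chromosome 9, 40800984 to 40810087) encodes the constitutive cytosolic HSP70, HSC70. Its levels were 144, 124 and 260 in XX1 to XX3, 44.01, 713 and 680 in XO1 to XO3, and 67.4, 207 and 477 in XY1 to XY3. Again XO1 and XY1 were lowest and XO2 and XO3 highest. The 2.72-fold difference of the means of XX and XO did not exceed the spread between pools (log2 fold change -1.45, SE 0.93, unadjusted p of 0.152). Hspa4 (chromosome 11, 53259814 to 53300457), an HSP110 nucleotide exchange factor for HSP70, stood at 40.3, 30.8 and 78.9 in XX, 18.6, 106 and 126 in XO, and 25.1, 45.6 and 79.7 in XY pools, in nearly the same order. For Hspa4 the log2 fold change of XX relative to XO was -0.74 (SE 0.68, unadjusted p of 0.298). The XX and XY means were 50.0 ± 25.5 and 50.1 ± 27.6 normalized CPM (SD, n = 3 each), with a log2 fold change of -0.01 and an SE of 0.67 that leaves room for a difference either way.

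Leaving out XO1 changed the calls of this group. Without it, Hsp90ab1 (-2.56), Hspa8 (-1.99), Hspa4 (-1.22), Dnajb1 (-1.31) and Ppia (-1.56) were all called lower in XX than in XO, 5 of 8 genes, where 33.6% of all genes were called lower. The same 5 genes were called lower in XY than in XO, where 27% of all genes were. Without both XO1 and XY1 the numbers called were 5 for XX relative to XO, 1 for XX relative to XY (Hspa8, -0.96) and 3 for XY relative to XO, where 40.7, 16 and 27.1% of all genes were called. The part that the low oocyte marker sums and high mt-Rnr2 of XO1 and XY1 have in these values was not tested.

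The table of batch-regressed log2 values, from which the study had removed surrogate variables, had another centre. The median log2 fold change of all genes on it was 0.28 for XX relative to XO and 0.32 for XY relative to XO. On it limma called Hspa8 (1.07), Hspa4 (0.95), Hsp90aa1 (0.71) and Hsp90ab1 (0.54) higher in XX than in XO oocytes, where 36.3% of all genes were called higher and 7.78% lower. The same 4 genes were called higher in XY than in XO, at 1.14, 0.80, 0.59 and 0.53, where 38% of all genes were called higher and 6.02% lower. Hspa8, for example, stood at 7.98, 7.99 and 8.11 in XX, 7.07, 7.50 and 6.29 in XO, and 7.44, 8.39 and 8.44 in XY pools on that log2 scale. XO3, which held 680 normalized CPM, thus became its lowest pool. Ppia kept its direction on this table, at -0.55 for XX relative to XO, which was called, and -0.43 for XY relative to XO, which was not. Hspd1 was called lower in XY than in XO on it (-0.35, unadjusted p of 0.042 in limma).

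Dnajb1 (chromosome 8, 83608193 to 83612653) encodes the heat-inducible HSP40 co-chaperone. It rested on 24 to 70 UMIs in a pool and stood at 12.1, 10.2 and 10.7 normalized CPM in XX, 12.4, 21.2 and 33.3 in XO, and 13.5, 11.1 and 21.1 in XY pools. The XX pools were all below the XO pools, though XX1 and XO1 nearly met, and XY pools overlapped both. The log2 fold change for XX relative to XO was -1.02 (SE 0.41, unadjusted p of 0.0323, adjusted 0.248 in edgeR), with all 3 XX pools lower. It was no longer called when any one of XX1, XX2, XX3, XO2 or XO3 was left out. Without XO3 it was -0.61, and without any one of the others it lay between -1.09 and -0.97. It was not called with TMM factors either (-0.61, unadjusted p of 0.0925), nor with DESeq2 size factors, gene totals, ERCC totals, Ppia UMIs, limma voom, 2 sva covariates or on the batch-regressed values.

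Dnaja1 (chromosome 4, 40722150 to 40737149), another J-domain co-chaperone of HSC70, had another order of pools. It stood at 166, 144 and 114 in XX1 to XX3, at 336, 119 and 135 in XO1 to XO3, and at 223, 128 and 132 in XY1 to XY3, so that XO1 and XY1 were its highest pools. Hspd1 (chromosome 1, 55077835 to 55088243), for mitochondrial HSP60, stood at 55.2, 54.6 and 32.3 in XX, 99.9, 48.1 and 57.6 in XO, and 72.0, 40.4 and 40.1 in XY pools, again highest in XO1 and XY1. Neither was called in any contrast of the edgeR fit with spike-in factors. Their log2 fold changes for XX relative to XO were -0.48 (SE 0.44) and -0.53 (SE 0.39), close to that of the median gene. Rows for the pseudogenes Dnaja1-ps, Hspd1-ps1 and Hspd1-ps3 held 1, 11 and 66 UMIs over all pools, which does not bound the reads that were left uncounted or counted elsewhere.

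Hspa2, an HSP70 best known from spermatogenic cells, and Hsf1 did not pass the filter on low counts. Hspa2 had 1 to 4 UMIs in every pool, 20 in all. Hsf1 had 1 UMI in 6 pools, 5 in XX3, 10 in XO2 and 6 in XY3, 27 in all. Differences between genotypes were not detectable for them at this depth.

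Hspa8, Hspa4 and Hsp90ab1 varied together across pools, and Dnaja1 and Hspd1 varied together in another order. In log2(normalized CPM + 1) over the 9 pools, Hspa8 and Hspa4 had Pearson's r = 0.978 and Spearman's rho = 0.983 (exact permutation p = 1.93e-05 and 4.96e-05), and Hspa4 and Hsp90ab1 had r = 0.973 and rho = 1 (p = 1.93e-05 and 5.51e-06). Hspa8 and Hsp90ab1 had r = 0.971 and rho = 0.983 (unadjusted p of 4.68e-05 and 4.96e-05). Dnaja1 and Hspd1 had r = 0.916 and rho = 0.883 (unadjusted p of 0.000413 and 0.00308), and Hspa8 and Dnaja1 had r = -0.825 and rho = -0.783 (unadjusted p of 0.00197 and 0.0172). The Benjamini-Hochberg values over the 28 pairs were 0.00027, 0.00027, 0.000328, 0.0023 and 0.00689 for Pearson's r of these 5 pairs in that order, and 0.000463, 0.000154, 0.000463, 0.0123 and 0.0536 for rho. Leaving out the 2 pools farthest from the median of the first gene gave r = 0.964, 0.968, 0.967, 0.709 and -0.706. With TMM factors r was 0.971, 0.953, 0.963, 0.934 and -0.979. As deviations from the genotype means r was 0.979, 0.988, 0.988, 0.935 and -0.955, so they also varied together within genotypes. Genes of 1 pool share a library. The permutations behind these p-values treated the 9 pools as exchangeable. The pools fell into genotypes, however, and some of them deviated together from their genotype means. The p-values therefore cannot tell a link between particular genes from a shift shared by many genes of a pool. XO1 and XY1, at the end of both orders, also had the lowest oocyte marker sums, whose part was not tested. With Hspa8, Ppia had r = 0.280 and rho = 0.083 (exact permutation p = 0.492 and 0.843, adjusted 0.573 and 0.874, r without the 2 farthest pools -0.190). With Hspd1 it had r = 0.475 and rho = 0.733 (exact permutation p = 0.197 and 0.0311, adjusted 0.263 and 0.0726, r without those pools 0.660). Its largest r and rho were with Dnajb1, at 0.80 and 0.817 (exact permutation p = 0.0129 and 0.0108, adjusted 0.0301 and 0.0377), and r without XX3 and XO3 was 0.357. Dnajb1 had r = 0.712 and rho = 0.517 with Hspa8 (adjusted exact permutation p = 0.0660 and 0.227).

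**Figure D4:**
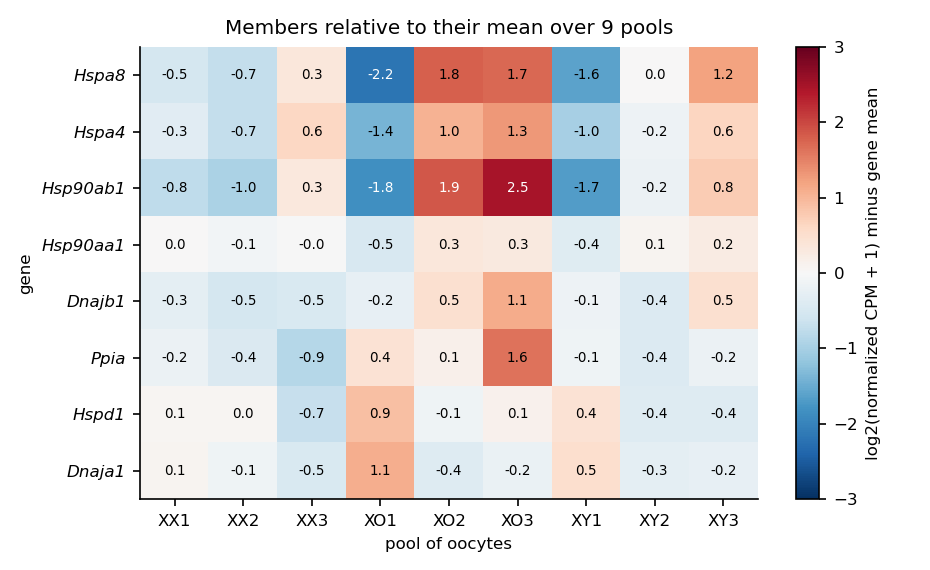
Each cell gives log2(normalized CPM + 1) of a gene in a pool minus the mean of that gene over the 9 pools, in red above and blue below that mean. Hspa8, Hspa4 and Hsp90ab1 are low in XO1 and XY1 and high in XO2, XO3 and XY3, whereas Dnaja1 and Hspd1 are highest in XO1 and XY1.

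The 5 genes with patterns most like Ppia over the 9 pools, by r in log2(normalized CPM + 1) among the 1421 tested genes that averaged 100 normalized CPM or more, were Btg4, an oocyte adaptor of the CCR4-NOT deadenylase (r = 0.980), Dnm1l, which encodes the mitochondrial fission GTPase DRP1 (0.975), Itsn2, an endocytic scaffold gene (0.947), Ppil4, itself a nuclear cyclophilin gene (0.940), and Tipin, a replication fork protein gene (0.926). With TMM factors their r was 0.960, 0.843, 0.912, 0.877 and 0.833. They were picked for this likeness, and pools share their scaling, so r is a description here.

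The partners of these chaperones and the other cyclophilins made up 9 lists with 109 genes, of which 69 were tested. Of the 69, 14 were called lower and 0 higher in XX than in XO, beside 16.7 and 1.4% of all genes. Between XX and XY 1 was lower in XX, beside 4.39% of all genes. Between XY and XO 6 were lower and 1 was higher in XY, beside 8.24 and 1.69% of all genes. Their median log2 fold changes were -0.55, -0.19 and -0.43, near the medians of all genes. None of these genes had an adjusted p below 0.05. Called genes outside the 3 most abundant of a list are named after their values were seen.

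Among the 10 tested HSP90 co-chaperones, 4 were called lower in XX than in XO, Ahsa1, Chordc1, Sugt1 and Ttc4, beside 16.7% of all genes. The last 3 of these were also called lower in XY than in XO, beside 8.24% of all genes. Sugt1, an HSP90 adaptor that also serves kinetochores, stood at 291, 235 and 450 in XX, 242, 1023 and 1362 in XO, and 212, 285 and 457 in XY pools, and its log2 fold change for XX relative to XO was -1.43 (unadjusted p of 0.0397). The genotypes overlapped through XO1. Stip1, which links HSP70 to HSP90, ran from 7.77 normalized CPM in XO1 to 314 in XO3 and did not pass the threshold (-2.17, unadjusted p of 0.0548), and Ptges3, the p23 gene, had -0.33 (unadjusted p of 0.466). Chordc1 stood at 18.9, 15.1 and 17.7 in XX, 30.5, 55.3 and 58.1 in XO, and 25.6, 17.9 and 19.0 in XY pools. Its XO pools lay wholly above the others (-1.48 relative to XO for XX, unadjusted p of 0.00108, adjusted 0.203). XX lay wholly below XO for 13.6% of tested genes, and XY wholly below XO for 6.34%. Without XO1 and XY1, 6 of the 10 were called in XX relative to XO, where 40.7% of all genes were.

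Of the 9 mitochondrial chaperones and their helpers, 4 were called lower in XX than in XO, Clpb, Dnaja3, Hspe1 and Trap1, beside 16.7% of all genes, and 7 were called without XO1 and XY1, beside 40.7%. Hspe1, which shares the promoter stretch shown above with Hspd1, stood at 17.8, 18.9 and 21.6 in XX, 29.0, 47.0 and 61.0 in XO, and 23.2, 27.3 and 38.03 in XY pools. XX lay wholly below XO, as for 13.6% of tested genes (-1.23 relative to XO, SE 0.34, unadjusted p of 0.00485, adjusted 0.203). Relative to XY the value was -0.60 (unadjusted p of 0.102), which was not called. Hspe1 and Hspd1 overlap at their 5′ ends on opposite strands, and the alignment was run in stranded mode. Hspd1 had its highest level in XO1, where Hspe1 had its lowest of XO. Hspa9, for mitochondrial HSP70, and Dnajc19 had -0.27 (unadjusted p of 0.449) and -0.14 (unadjusted p of 0.569).

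Of the 14 tested J-domain genes, 2 were called lower in XX than in XO, Dnajc8 and Dnajc21, beside 16.7% of all genes. The most abundant, Dnajb4, Dnajb6 and Dnajc7, were not called (-0.79, -0.55 and -0.64, lowest unadjusted p 0.179). None of 5 other HSP70 and HSP110 genes was called in any contrast. The most abundant of these, Hsph1, an HSP110 gene, had -0.13 (unadjusted p of 0.759) and was highest in XO1 and XY1, at 522 and 398 normalized CPM, as Dnaja1 was. Hspa4l and Hspa13 had -0.55 and 0.00. None of 3 exchange factor genes was called in any contrast, with -0.32 for St13, -0.34 for Bag4 and 0.12 for Bag1.

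Of 14 tested genes of the TRiC chaperonin and prefoldin, which fold actin and tubulin, 1 was called lower in XX than in XO. It was Tcp1 (-0.93, unadjusted p of 0.00625), beside 16.7% of all genes. The most abundant, Pfdn4, Cct2 and Cct3, had -0.38, -1.16 and -1.53 and did not pass (lowest unadjusted p 0.194). Cct6b was called higher in XY than in XX (unadjusted p of 0.0375, adjusted 0.799) and than in XO (unadjusted p of 0.0273, adjusted 0.485). In these directions 4.39 and 1.69% of all genes were called. Its levels were 47.4, 42.3 and 19.6 normalized CPM in XY pools. They were 23.9, 18.2 and 7.31 in XX and 19.2, 14.0 and 12.4 in XO pools, so XY3 lay below XX1. Of 11 other cyclophilin genes, 3 were called lower in XX than in XO, Cwc27, Ppil3 and Ppil4, beside 16.7% of all genes. The most abundant, Ppih of the splicing machinery, had 0.15 (unadjusted p of 0.601), and Ppig had -0.44 (unadjusted p of 0.383). Ppil4 was at 83.3, 76.3 and 82.9 in XX, 131, 120 and 185 in XO, and 93.4, 78.1 and 93.3 in XY pools, with the XO pools above all others as for Ppia.

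Of the small heat shock protein genes only Hspb11, whose product belongs to intraflagellar transport, was tested, at a mean of 4.99 normalized CPM (-0.31, unadjusted p of 0.514). Hspb6 and Hspb1 had means of 0.907 and 0.764. Among the heat shock factor genes, Hsf2 stood at 4.53 to 9.03 normalized CPM over the pools, with a mean of 7.39 against 1.23 for Hsf1, with -0.06 for XX relative to XO (unadjusted p of 0.866). Hsf5 had a mean of 27.7 normalized CPM and -0.40 (unadjusted p of 0.512), and Hsbp1, for a binding protein of HSF1, had a mean of 45.9 and -1.39 (unadjusted p of 0.0694). The 12 immediate early genes with a row, checked as signs of dissociation stress, summed to 11.7 to 30.0 normalized CPM and were highest in XO2 and XO3, and their part in the levels above was not tested.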

How the data were processed

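Oocyte pools of 3 genotypes were profiled with Smart-seq3. The authors aligned reads with HISAT2 to GRCm38 (mm10) with Gencode genes (versions not given in the sources used here), counted 5′ UMIs, and deposited 3 tables: raw UMI counts, CPM normalized to ERCC spike-ins, and batch-regressed log2 values. Of the 28052 gene rows in the counts, 28051 are in the deposited CPM, and 79 ERCC rows and 1 row of no gene stayed out of the tests. The deposited CPM is a scaled signal that the authors made with the spike-ins. It equals counts over gene totals times TMM factors of the ERCC counts, within a relative difference of 4.9e-15. The unnumbered XO column was taken as XO1.

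Counts were fitted with edgeR 4.0.16 (R 4.3.3; spike-in factors, filterByExpr by genotype, quasi-likelihood F test, 1 mean per genotype, all 9 samples, two-sided). Calls used an unadjusted p below 0.05, with Benjamini-Hochberg values beside them. Adjusted p-values in the text are from edgeR unless another test is named. Alternatives used limma 3.58.1, DESeq2 1.42.0 and sva 3.50.0, and exact permutation tests used scipy 1.17.1. A log2 fold change of A relative to B is A minus B. On simulated counts for XX relative to XO, 91.5% of 200 genes changed 4-fold among 10993 were called, and 4.52% of the unchanged ones. The simulation gave all genes a common dispersion (0.2014) and independent pools. Its rates therefore do not hold for genes that varied more between pools, such as Hsp90ab1 and Hspa8.

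Same-numbered XO and XY samples deviated together from their genotype means for numbers 1 and 3 (r = 0.818 and 0.766), and less for 2 (0.272). XO2 deviated more with XY3 (0.707) than with XY2, so the number is not a clear pairing. The contrast of XY with XO was also fitted with the replicate number as a block. The labels do not say what a number marks. XX1 and XX3 also deviated with their numbers in XO (0.450 and 0.665) and XY (0.416 and 0.711), while XX2 did not (-0.427 and -0.058).

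The 10 genes and all lists were chosen with earlier results of these data known. Named from each list were its 3 genes with the highest mean and any with an adjusted p below 0.05, from the reference genes Tubb5, Actb, Gapdh and the least variable, and the 5 genes most like Ppia. Other genes called in a list are named after their values were seen. No protein sequences were used here.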

Additional observations from a re-analysis of the deposited data

How the results depend on the processing

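For XX relative to XO, where 2 genes and 18.1% of all genes were called in either direction, Ppia was the 1 called with TMM factors, DESeq2 size factors in edgeR and limma voom (12.2, 12.6 and 11.7% of all genes), and Hsp90ab1 the 1 called with 2 sva covariates (15.9%). The number was 0 with gene totals, ERCC totals or Ppia UMIs (12.8, 3.12 and 17.2%). With Ppia UMIs, Ppia itself could not be called in any contrast. The number was 3 with DESeq2 (Hsp90ab1 added, 21.2%), 4 without a filter (14.1%) and 5 on batch-regressed values (44.1%). It was 5 without XO1 and XY1 (a choice made after seeing the data, 40.7%), and 1 to 5 when single samples were left out (8.23 to 36.4%). For XX relative to XY, where 0 were called (lowest unadjusted p 0.269), and 0 also by DESeq2 and limma voom, Hspa8 alone was called with sva covariates and without XO1 and XY1, 1 gene each (20 and 16% of all genes). For XY relative to XO, where 1 and 9.93% of all genes were called, 0 were called with gene totals, ERCC totals or Ppia UMIs (11.1, 1.24 and 12.7%), 2 without a filter (9.75%), 2 with the replicate block (Ppia and Hsp90ab1, 16.6%), 5 on batch-regressed values (44%), 3 without XO1 and XY1 (27.1%), and 0 to 5 when single samples were left out (3.66 to 31.6%); the block changed no other call of the 8 genes.

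Ppia lost its call for XX relative to XO with gene totals (-0.76), ERCC totals (-0.61) and sva covariates (-0.11), and stayed between -1.64 and -0.77 when single samples were left out. For XY relative to XO it lost its call with gene totals (-0.66), ERCC totals (-0.97), sva covariates (-0.43) and batch-regressed values (-0.43), with a range of -1.40 to -0.54 when single samples were left out. For XX relative to XY it turned to 0.35 with ERCC totals and 0.33 with sva covariates. Its permutation p rose from 0.0107 to 0.075 as CPM of gene UMIs and 0.396 per ERCC UMI, and its coefficient of variation ranged from 27.5 to 74.5% when single samples were left out.

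For XX relative to XO, other signs were found with TMM factors and DESeq2 size factors for Hsp90aa1 (0.26 and 0.22), with gene totals for Hsp90aa1, Dnaja1 and Hspd1 (0.45, 0.059 and 0.011), with ERCC totals for Hspa4, Hsp90aa1, Dnaja1 and Hspd1 (0.29, 0.70, 0.49 and 0.29), with Ppia UMIs for Hspa4, Hsp90aa1, Dnaja1, Dnajb1 and Hspd1 (0.64, 1.04, 0.58, 0.28 and 0.54), with sva covariates for Hspa4 (0.030), and without XO1 and XY1 for Dnaja1 (0.15). On batch-regressed values Hspa8, Hspa4, Hsp90aa1 and Hsp90ab1 were at 1.07, 0.95, 0.71 and 0.54, and Hsp90ab1 was at 0.53 for XY relative to XO. When single samples were left out, Hsp90aa1 ranged from -0.35 to 0.013 and Dnaja1 from -0.74 to 0.15. The median of all genes for XX relative to XO moved too. It went from -0.46 to -0.11 and -0.15 with TMM factors and DESeq2 size factors. With gene totals, ERCC totals and Ppia UMIs it was 0.10, 0.42 and 0.70. It was -0.02 with sva covariates and 0.28 on batch-regressed values. Single genes did not shift by the same amount as the median: on batch-regressed values Hspa8 went from -1.45 to 1.07. The causes of these changes were not tested. With 24 to 70 UMIs, Dnajb1 is the tested gene limited most by depth.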
